A study of Homo sapiens with 18 samples.

Results

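Drug-tolerant persisters (DTPs) of the lung cancer line PC9 were compared with PC9 cells that had met the same drug for a much shorter time. The members are 6 of the series' 18 libraries, taken by their titles. Of these, 3 are labelled PC9DTP, which are the cells still alive after 8 days in 1 μM erlotinib, with medium and drug renewed every 3 days. Their treatment notes also mention cells sorted by ALDH activity, but the 3 titles name no sort, so these libraries are taken as unsorted DTPs. The other 3 are labelled as PC9 with 1 μM erlotinib for 24 hours, called 24-hour cells here, and their labels mention no change of medium. All groups used here are PC9 cells grown in RPMI-1640 with 10% FBS. The 3 DMSO-treated PC9 libraries are given beside them as the parental level. Together with 3 libraries of PC9 in 50 μM carboplatin for 72 hours, they also entered the scaling, the filter and the estimate of the spread. The remaining 6 libraries, DTPs or parental cells with TSA, a histone deacetylase inhibitor, were left out of the fit. Every library was a poly-A RNA-seq library of 1 cell line, to which ERCC spike-in RNA had been added by cell number. Time in the drug, renewal of medium and survival of only part of the cells differ together between the 2 groups and cannot be told apart. Whether replicates a, b and c came from separate cultures is not stated, and the p-values describe the spread among these libraries, which may be technical.

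PC9 is a lung adenocarcinoma line that carries an activating deletion in EGFR, the receptor tyrosine kinase that erlotinib inhibits. Signalling from this receptor runs through the RAS, RAF, MEK and ERK kinases and through PI3K and AKT. ERK drives transcription of growth genes and of its own inhibitors, while AKT keeps FOXO transcription factors out of the nucleus. DTPs are known as the small share of such cells that outlives the drug without a resistance mutation, mostly as slowly cycling cells. The study's title names the repression of LINE-1 retrotransposons as its subject, so transposon families were measured alongside genes.

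The 6 libraries held 76101016 to 92609922 reads assigned to genes, and replicate libraries correlated at 0.9987 or 0.9988 (Pearson's r of log2 CPM across genes, which are not independent replicates). CPM is a gene's reads per 1000000 gene reads of its library after TMM scaling. Levels below are in CPM, and differences are log2 DTP minus 24-hour cells with their standard error (SE), from edgeR's quasi-likelihood test with Benjamini-Hochberg adjustment at a threshold of 0.05. Where a gene is given in brackets or after "went from", the first 2 values are the means of the 3 libraries of 24-hour cells and of DTPs, followed by the log2 difference ± SE. Of 17076 genes tested, 7156 (41.9%) were higher and 5703 (33.4%) lower in DTPs, together 75.3%. At a change of at least 2-fold, 2137 (12.5%) were higher and 1954 (11.4%) lower. With the 6 libraries alone in the fit, the calls were balanced, at 6690 genes higher and 6584 lower. The groups did not overlap for 79.6% of all genes, so a count of changed members is read below against these shares. Spike-in reads per 100 gene reads were 0.733 ± 0.0311 (SD, n = 3) in 24-hour cells and 0.549 ± 0.0177 (SD, n = 3) in DTPs, a log2 difference of -0.42 (2-sided exact permutation test, p = 0.1, the smallest possible with 3 against 3). Scaling to spike-in reads therefore moved the median difference of all genes from 0.06 to 0.48 and the share of calls that were higher in DTPs from 55.6% to 79.7% (10146 higher and 2587 lower). A gene between -0.42 and 0 on the main scale changes sign on the spike-in scale. Where the counts of a list turn or shift strongly there, the spike-in counts stand in brackets as higher and lower, or as only the count that shifted. In a fit of all 18 libraries 9 named genes and repeats lost their call, but none did when replicate a of both TSA groups was left out. One of those libraries, replicate a of DTPs with TSA, held 99.9 spike-in reads per 100 gene reads. A lower level on the main scale is a lower share of gene reads. It can come from fewer cells with the transcript, from less of that transcript in each cell or from more RNA of other genes. Genes of the mitochondrial genome took 6.28% to 6.77% of gene reads in 24-hour cells and 4.02% to 4.15% in DTPs. The 6 epithelial markers were present in every library, at a summed 7903 to 8065 CPM in 24-hour cells and 5082 to 5183 CPM in DTPs. Of these, 2 were called higher in DTPs (EPCAM and KRT7) and 3 lower (KRT8, KRT18 and KRT19), while CDH1 was not called. The lung alveolar markers SFTPC, SFTPA1 and SFTA2 were at or near 0.

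**Figure D1:**
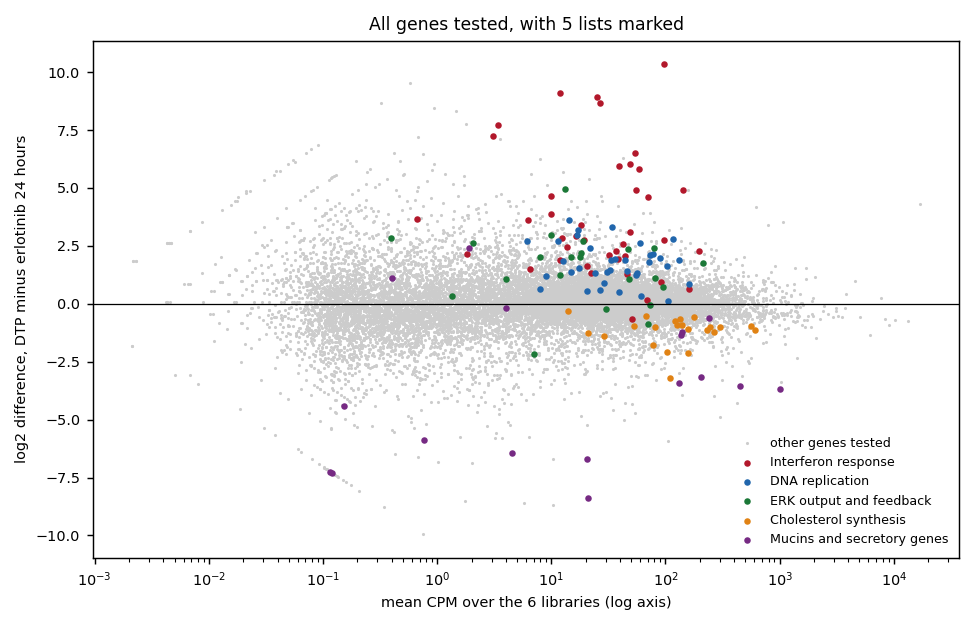
Log2 difference between DTPs and 24-hour cells (vertical axis) against the mean CPM of the 6 libraries (horizontal log axis) for the 17076 genes tested, each gene a point, with 5 gene lists in colour. Interferon response genes reach 10.34 above zero at high levels, and mucin and secretory genes lie far below zero.

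Among genes of at least 10 CPM, 8 of the 12 with the largest increase were genes induced by interferon. They were OAS2, IFI27, XAF1, IFI44L, IFI44, BST2, MX2 and IFI6. OAS2, an enzyme that senses double-stranded RNA, was at 0.0722, 0.0691 and 0.318 CPM in 24-hour cells and 197, 193 and 197 CPM in DTPs. It differed by 10.34 ± 0.13 (adjusted p = 2.9e-18), which is about 1295-fold. The other 4 were SERPINB2, an inhibitor of plasminogen activators (1.07 to 83.3 CPM, 6.29 ± 0.08), the steroid-forming enzyme HSD3B1 (0.208 to 15.8 CPM, 6.25 ± 0.07), the basement membrane collagen COL15A1 (0.476 to 24.8 CPM, 5.70 ± 0.11) and the adhesion protein NEGR1 (0.271 to 13.1 CPM, 5.60 ± 0.12). All 3 DTP libraries lay above all 3 libraries of 24-hour cells for each of these genes, which was part of the rule that chose them. HSD3B1 stood at 50.8 CPM in parental cells, so its level in DTPs was still below that of untreated cells.

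The 12 largest decreases were led by SOX2, a transcription factor of stem and airway basal cells. SOX2 was at 20.5, 20.6 and 21.4 CPM in 24-hour cells and 0.0751, 0.0388 and 0.0416 CPM in DTPs, a difference of -8.70 ± 0.14 (adjusted p = 5e-17). It had been at 0.142 CPM in parental cells, so the high level was found at 24 hours alone among the 3 groups. INPP5D, an inositol phosphatase best known from blood cells (11.4 to 0.0310 CPM, -8.58 ± 0.22), and CP, the copper-carrying ceruloplasmin (41.5 to 0.118 CPM, -8.40 ± 0.12), followed the same order of the 3 groups, with parental means of 0.664 and 0.128 CPM. AGR2, a protein disulfide isomerase of mucus-secreting cells, was at 214, 203 and 202 CPM in 24-hour cells and 3.43, 3.42 and 3.37 CPM in DTPs (-5.92 ± 0.04). CASP14, a caspase of cornifying keratinocytes, was at 605, 572 and 559 CPM in 24-hour cells and 19.5, 19.4 and 20.4 CPM in DTPs (-4.87 ± 0.05). The aldehyde dehydrogenase ALDH3B2 (-5.22 ± 0.10) and the collagenase MMP13 (-4.86 ± 0.09) were also among them. The last 5, CEACAM5 (-6.71 ± 0.10), SERPINB3 (-6.72 ± 0.15), SERPINB4 (-5.75 ± 0.18), KRT6B (-5.00 ± 0.06) and ALPG (-4.73 ± 0.08), have near-identical paralogs between which the read assignment could be split, so their single values are uncertain.

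**Figure D2:**
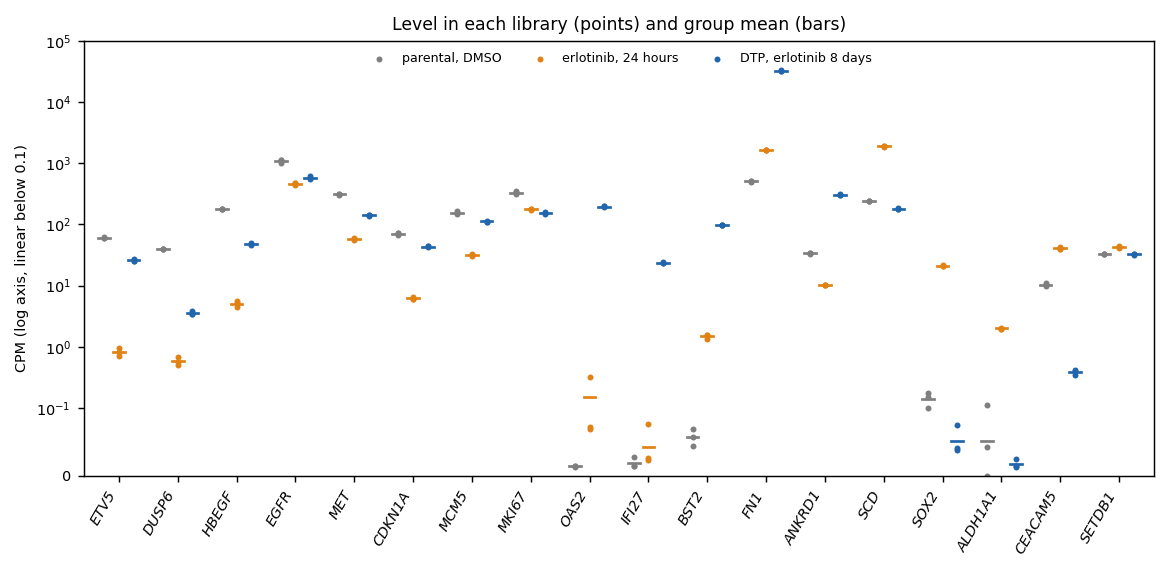
CPM of 18 genes of the lists below (vertical axis, logarithmic above 0.1) in each library, with points for libraries and short bars for the means of parental, 24-hour and DTP cells. The 3 libraries of a group lie close together for most genes, and SOX2 and SCD peak at 24 hours while FN1, OAS2 and ANKRD1 peak in DTPs.

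Most transcripts that report ERK activity were higher in DTPs than in 24-hour cells. Of 22 such genes tested, 18 were higher and 3 lower in DTPs, and the median difference was 1.89, beside 0.06 for all genes tested. ETV5, a transcription factor induced by ERK, was at 0.805, 0.967 and 0.715 CPM in 24-hour cells and 26.997, 25.2 and 24.8 CPM in DTPs. The difference was 4.94 ± 0.07 (adjusted p = 8.2e-18), with a parental mean of 60.4 CPM. DUSP6, the phosphatase that switches ERK off, was at 0.677, 0.553 and 0.503 CPM in 24-hour cells and 3.82, 3.41 and 3.40 CPM in DTPs (2.61 ± 0.09). The groups did not overlap, but DTPs remained far below the parental mean of 39.9 CPM. The feedback inhibitor SPRED1 (5.09 to 32.97 CPM, 2.70 ± 0.05), PHLDA1 (7.04 to 28.3 CPM, 2.01 ± 0.03) and the cell cycle gene CCND1, which encodes cyclin D1 (95.04 to 327 CPM, 1.78 ± 0.03), rose likewise. CCND1 in DTPs came close to its parental mean of 360.0 CPM, whereas PHLDA1 stayed well below its 213 CPM. In the other direction, the ERK inhibitor SPRY1 fell from 12.2, 11.2 and 11.4 CPM in 24-hour cells to 2.53, 2.79 and 2.39 CPM in DTPs (-2.17 ± 0.07), and the phosphatase DUSP5 fell by 0.87 on the log2 scale.

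Several EGFR ligands were higher in DTPs, while the partner receptors ERBB2 and ERBB3 were lower. Of 14 genes tested in this family, 7 were higher and 4 lower, near the shares over all genes (41.9% and 33.4%). With all 18 libraries fitted, 4 were called higher. HBEGF, a heparin-binding EGFR ligand, was at 4.48, 5.59 and 5.11 CPM in 24-hour cells and 48.7, 45.2 and 46.9 CPM in DTPs (3.21 ± 0.06). The ligands TGFA (62.3 to 180.2 CPM, 1.53 ± 0.03) and NRG1 (0.0206 to 0.458 CPM, 4.49 ± 0.44) also rose, while EREG was at a mean of 11.8 CPM in 24-hour cells and 3.90 CPM in DTPs (-1.60 ± 0.08). EGFR itself was at 434, 473 and 473 CPM in 24-hour cells and 572, 608 and 557 CPM in DTPs, a difference of 0.33 ± 0.05 that lost its call when all 18 libraries were fitted. Both groups lay below the parental mean of 1086 CPM. The partner receptors ERBB3 (161 to 56.2 CPM, -1.52 ± 0.03) and ERBB2 (132 to 74.1 CPM, -0.84 ± 0.04) fell, and LRIG1, which promotes degradation of EGFR, rose (3.06 to 24.3 CPM, 2.99 ± 0.07).

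Of 13 other receptor tyrosine kinases tested, some of which can signal in place of EGFR, 7 were higher and 4 lower in DTPs (10 and 2 on the spike-in scale), near the shares over all genes on the main scale. MET, the receptor of hepatocyte growth factor, was at 57.2, 54.9 and 58.7 CPM in 24-hour cells and 144, 142 and 138 CPM in DTPs (1.31 ± 0.03). AXL was at 113, 115 and 113 CPM in 24-hour cells and 236, 239 and 241 CPM in DTPs (1.07 ± 0.03). For both, the groups did not overlap, and both lay below the parental means of 311 and 330.1 CPM. ROR1 (1.58 ± 0.04), TYRO3 (1.53 ± 0.04) and FGFR1 (1.33 ± 0.04) rose by similar or larger amounts, while FGFR3 (7.40 to 1.73 CPM, -2.09 ± 0.11) and the insulin receptor INSR (27.1 to 14.5 CPM, -0.90 ± 0.06) fell. The receptor IGF1R was at 113, 109.5 and 105 CPM in 24-hour cells and 97.3, 101 and 95.8 CPM in DTPs. Its difference was -0.16 ± 0.03 on the main scale and 0.26 on the spike-in scale, and the call was lost when all 18 libraries were fitted. Around this receptor, the protease PAPPA, which frees insulin-like growth factors from their binding proteins, rose (1.33 to 28.6 CPM, 4.43 ± 0.06), as did the binding protein IGFBP5, at 174, 173 and 172 CPM in 24-hour cells and 657, 679 and 654 CPM in DTPs (1.94 ± 0.04). IGFBP5 had a parental mean of only 0.551 CPM. IGFBP2 (38.96 to 10.8 CPM, -1.85 ± 0.09) and IGFBP6 (86.1 to 30.4 CPM, -1.50 ± 0.06) fell, and over the 12 genes of the axis that were tested 5 were higher and 6 lower (7 and 3 on the spike-in scale).

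Most genes under FOXO control and inhibitors of PI3K were lower in DTPs than at 24 hours. Of 17 tested, 15 were lower in DTPs and 1 was higher (2 higher on the spike-in scale), with a median of -1.09. DEPP1, a FOXO target, was at 124, 124 and 121 CPM in 24-hour cells and 14.6, 14.1 and 15.2 CPM in DTPs (-3.07 ± 0.04). PIK3IP1, an inhibitor of PI3K, was at 99.8, 99.9 and 96.96 CPM in 24-hour cells and 16.3, 16.2 and 15.4 CPM in DTPs (-2.63 ± 0.04). Both were below 1 CPM in parental cells, at 0.579 and 0.663 CPM, so DTPs lay between the parental and the 24-hour level. The transcriptional repressor BCL6 (248 to 36.1 CPM, -2.78 ± 0.03) and the cyclin CCNG2 (90.2 to 20.2 CPM, -2.16 ± 0.05) fell too.

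**Figure D3:**
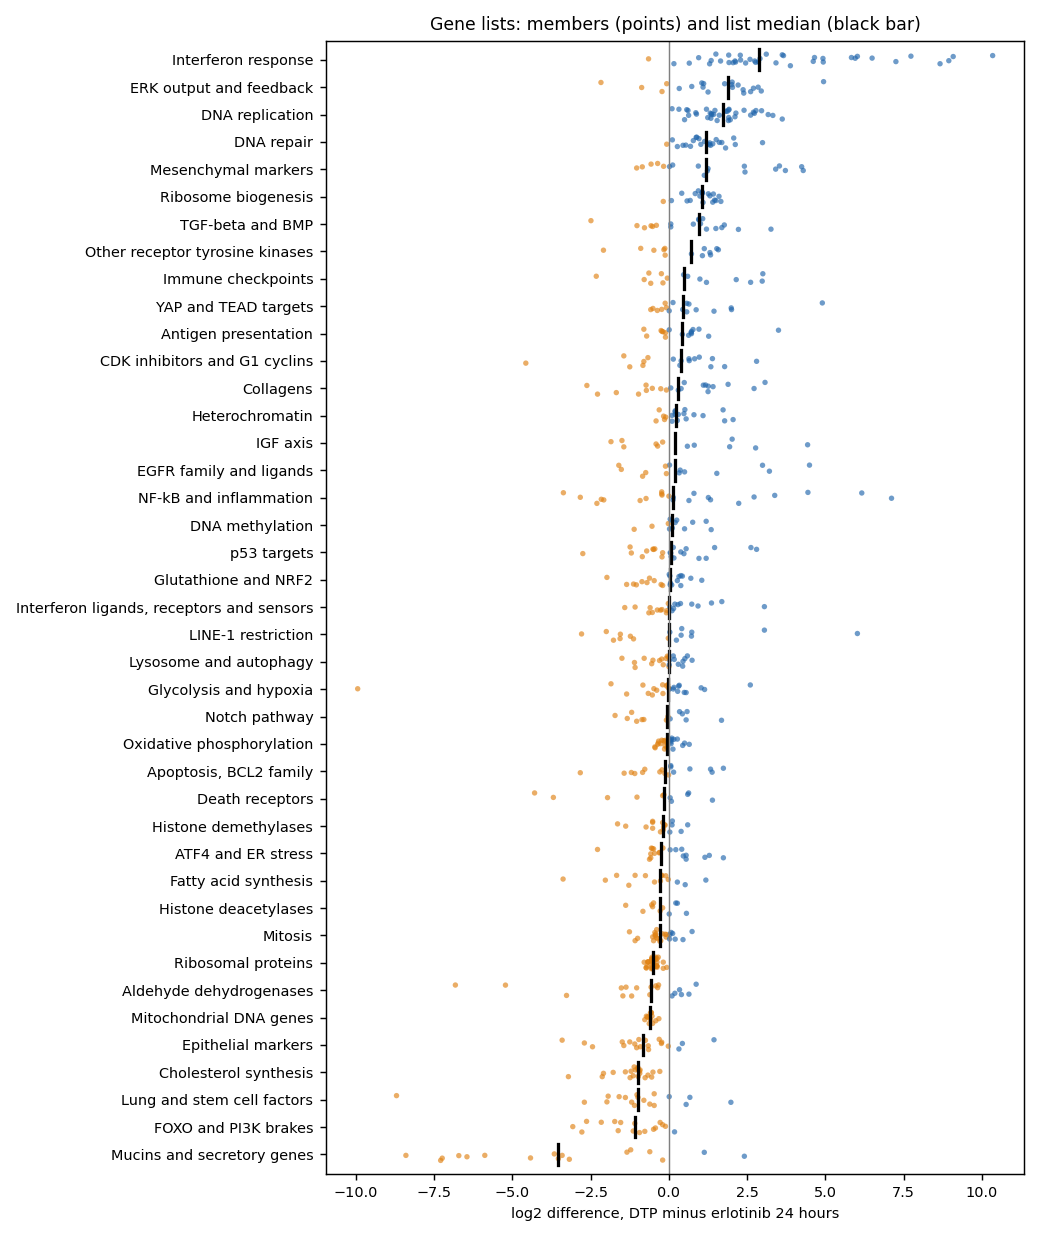
Log2 difference between DTPs and 24-hour cells (horizontal axis) for every tested member of 41 gene lists, 1 point per gene, with the list median as a black bar. Interferon response, ERK output and DNA replication have the highest medians, and mucin and secretory genes the lowest.

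Genes of DNA replication were higher in DTPs than at 24 hours. All 36 tested were called higher, 28 of them by at least 2-fold, and the median was 1.72. CDC6, which loads the replicative helicase onto origins, was at 5.78, 6.37 and 6.29 CPM in 24-hour cells and 63.02, 60.6 and 60.2 CPM in DTPs (3.32 ± 0.04, adjusted p = 3.4e-18). The helicase subunit MCM5 was at 30.04, 33.1 and 31.5 CPM in 24-hour cells and 109, 115 and 109.9 CPM in DTPs (1.82 ± 0.06), and its partner MCM2 went from 28.6 to 126 CPM, 2.14 ± 0.04. MCM10 (2.13 to 26.2 CPM, 3.62 ± 0.07), the GINS subunit GINS2 (3.44 to 31.02 CPM, 3.17 ± 0.05), the ribonucleotide reductase subunit RRM2 (29.6 to 204 CPM, 2.78 ± 0.04) and the flap endonuclease FEN1 (27.7 to 119 CPM, 2.11 ± 0.03) rose as well. DTPs were still below parental cells for most of these, for which the parental means were 116 CPM for CDC6, 155 CPM for MCM5 and 513 CPM for RRM2. E2F1, the transcription factor that drives many genes of this list, stood at a mean of 6.87 CPM in 24-hour cells, 36.4 CPM in DTPs and 36.1 CPM in parental cells (2.40 ± 0.05).

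The promoters of these genes are shown because E2F factors bind the core letters TTTNNCGC there. Reference promoter windows of 300 bases (250 before and 50 after the transcript start, from RefSeq on GRCh38.p14) were found for 31 of the 36 genes, and 20 of them (64.5%) held these letters on either strand, against 8.23% of the 27305 genes with a window. The 200 bases before the start are printed 5′ to 3′ in the direction of the gene, with every match in capitals, for the 3 genes of the list with the largest increase and a match in that stretch. GINS2 lies on the minus strand at chr16:85688955-85689154, POLE2, a DNA polymerase epsilon subunit, on the minus strand at chr14:49688215-49688414, and MCM6 on the minus strand at chr2:135876444-135876643.
GINS2: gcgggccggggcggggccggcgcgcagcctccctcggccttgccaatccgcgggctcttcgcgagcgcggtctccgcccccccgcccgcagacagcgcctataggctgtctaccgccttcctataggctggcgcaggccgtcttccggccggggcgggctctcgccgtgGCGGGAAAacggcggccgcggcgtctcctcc
POLE2: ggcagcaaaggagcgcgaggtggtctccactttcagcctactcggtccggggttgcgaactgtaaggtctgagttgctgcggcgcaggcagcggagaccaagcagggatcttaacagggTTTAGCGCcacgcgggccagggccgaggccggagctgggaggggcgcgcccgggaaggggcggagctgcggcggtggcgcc
MCM6: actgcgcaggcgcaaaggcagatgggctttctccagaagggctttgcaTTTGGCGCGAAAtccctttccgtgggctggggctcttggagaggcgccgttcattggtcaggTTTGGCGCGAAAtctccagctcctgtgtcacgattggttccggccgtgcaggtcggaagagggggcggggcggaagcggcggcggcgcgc
POLE2 was at 1.60, 1.57 and 1.79 CPM in 24-hour cells and 10.5, 10.4 and 11.2 CPM in DTPs (2.70 ± 0.08). MCM6 was at 17.8, 16.96 and 15.6 CPM in 24-hour cells and 104, 103 and 100.5 CPM in DTPs (2.61 ± 0.04). A match of letters is a description of the sequence and not a measured binding site. The list was made of known replication genes, so the share with these letters describes the list and not these libraries.

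The balance of mitotic genes turned with the scaling. Of 25 tested, 4 were higher and 17 lower in DTPs (10 and 3 on the spike-in scale), with a median of -0.29 that became 0.13 on the spike-in scale. The mitotic kinase CDK1 was at 68.4, 63.7 and 67.6 CPM in 24-hour cells and 113, 106 and 114 CPM in DTPs (0.74 ± 0.04), and CCNA2, cyclin A, went from 74.6 to 102 CPM, 0.45 ± 0.03. MKI67, which encodes the proliferation marker Ki-67, was at 173, 181 and 178 CPM in 24-hour cells and 152, 159 and 149.5 CPM in DTPs. Its difference was -0.21 ± 0.04 on the main scale and 0.22 on the spike-in scale, and it lost its call with all 18 libraries fitted. Both groups were below the parental mean of 330.0 CPM. The phosphatase CDC25C (17.1 to 7.14 CPM, -1.26 ± 0.06), cyclin B2 (CCNB2, 44.4 to 21.1 CPM, -1.08 ± 0.04) and the kinesin KIF20A (74.1 to 36.9 CPM) fell at both scalings.

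A list of cell cycle inhibitors together with G1 cyclins and their kinases moved in both directions, 10 of its 17 tested genes being higher and 6 lower. CDKN1A, which encodes the inhibitor p21, was at 6.04, 6.11 and 6.49 CPM in 24-hour cells and 42.4, 43.6 and 43.99 CPM in DTPs (2.80 ± 0.05, adjusted p = 6.2e-17). The groups did not overlap, and the parental mean was 70.7 CPM. The kinases CDK6 (65.9 to 166 CPM, 1.34 ± 0.04) and CDK4 (44.97 to 88.2 CPM, 0.97 ± 0.03), partners of cyclin D1, rose, whereas the antiproliferative genes BTG1 (186 to 68.5 CPM, -1.44 ± 0.04) and TOB1 (75.05 to 31.6 CPM, -1.25 ± 0.04) fell. DNA repair genes were higher in 22 of 24 cases with none called lower, a median of 1.19, led by the exonuclease EXO1 (5.39 to 42.9 CPM, 2.99 ± 0.05). Genes of ribosome biogenesis rose in 19 of 20 cases (median 1.07), with the nucleolar protein NOP56 going from 39.3 to 124 CPM, 1.66 ± 0.03. Ribosomal protein genes, in contrast, were lower in 36 of 37 cases (3 and 7 on the spike-in scale) with a median of -0.52, which was -0.10 on the spike-in scale, and RPL3 went from 1726 to 996 CPM, -0.79 ± 0.02.

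**Figure D4:**
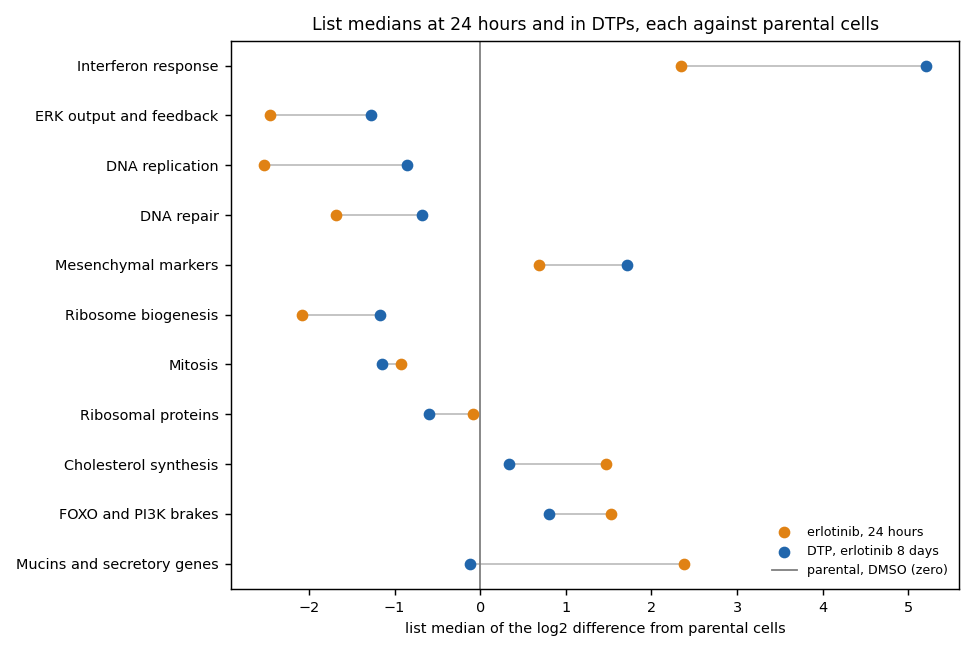
Median log2 difference from parental cells (horizontal axis) of 11 gene lists in 24-hour cells and in DTPs, both of which share the same 3 parental libraries, so the points of a list are set side by side only. Lists of replication, repair, ERK output and ribosome biogenesis lie nearer to the parental line in DTPs than at 24 hours, while the interferon list lies farther from it, at 5.21 against 2.34 (2.29 with genes that had no parental read set at their lower bound).

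Interferon response genes formed the list with the highest median difference, 2.89 over 40 genes, with 39 higher, 36 of them by at least 2-fold, and 1 lower. This pathway answers viral or self nucleic acids: type I interferon activates a complex with the factors STAT2 and IRF9, which binds the interferon-stimulated response element and raises antiviral genes. IRF9 went from 12.6 to 32.2 CPM, 1.35 ± 0.06, and STAT2, which lost its call when all 18 libraries were fitted, from 65.3 to 72.8 CPM, 0.16 ± 0.03. The RNA-activated synthetases OAS1 (5.53 to 135 CPM, 4.61 ± 0.05) and OAS3 (9.05 to 275 CPM, 4.92 ± 0.04) rose along with OAS2. IFI27, a protein of the mitochondrial membrane, was at 0.0767, 0.0230 and 0.0265 CPM in 24-hour cells and 23.4, 23.4 and 23.9 CPM in DTPs (9.08 ± 0.18). BST2, which tethers virus particles to the cell surface, was at 1.56, 1.54 and 1.34 CPM in 24-hour cells and 97.5, 95.7 and 97.4 CPM in DTPs (6.02 ± 0.06). ISG15, a ubiquitin-like modifier, was at 9.70, 10.2 and 10.6 CPM in 24-hour cells and 83.2, 90.8 and 89.5 CPM in DTPs (3.11 ± 0.13). In each of these the lowest DTP library was above the highest 24-hour library. XAF1 was at 0.0832, 0.0806 and 0.138 CPM in 24-hour cells and 50.1, 47.4 and 51.9 CPM in DTPs (8.94 ± 0.13) and had no read in the 3 parental libraries, from which the DTP level was at least 3767-fold higher, taking a floor of 3 reads over that group. The exception was IRF1, a transcription factor induced mainly by interferon gamma, at 60.5, 64.3 and 62.5 CPM in 24-hour cells and 39.3, 40.4 and 39.3 CPM in DTPs (-0.65 ± 0.04).

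Promoter windows of this list are shown for the response element, whose core was searched on both strands as GAAA, any 2 bases and GAAA. Of 40 genes, 31 had a window, and 21 of them (67.7%) held the core, against 4.38% of the 27305 genes. The list was made of known interferon response genes, so this share describes the list and not these libraries. The 200 bases before the start, with matches in capitals, are given for the 4 genes with the largest increase and a match there, all on the plus strand. IFI27 lies at chr14:94110536-94110735, IFI44L at chr1:78620248-78620447, RSAD2 at chr2:6877577-6877776 and IFI44 at chr1:78649589-78649788.
IFI27: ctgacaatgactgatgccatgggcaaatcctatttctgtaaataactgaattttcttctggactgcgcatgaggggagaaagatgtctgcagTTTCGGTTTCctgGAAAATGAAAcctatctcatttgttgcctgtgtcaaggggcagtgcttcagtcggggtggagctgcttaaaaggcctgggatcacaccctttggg
IFI44L: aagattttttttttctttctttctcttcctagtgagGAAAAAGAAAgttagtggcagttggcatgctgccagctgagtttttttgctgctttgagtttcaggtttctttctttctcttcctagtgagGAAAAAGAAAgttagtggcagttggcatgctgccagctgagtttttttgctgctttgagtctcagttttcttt
RSAD2: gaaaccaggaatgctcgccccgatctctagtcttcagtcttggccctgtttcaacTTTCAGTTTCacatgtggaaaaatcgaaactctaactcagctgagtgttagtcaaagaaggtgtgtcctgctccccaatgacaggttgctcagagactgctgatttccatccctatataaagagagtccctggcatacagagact
IFI44: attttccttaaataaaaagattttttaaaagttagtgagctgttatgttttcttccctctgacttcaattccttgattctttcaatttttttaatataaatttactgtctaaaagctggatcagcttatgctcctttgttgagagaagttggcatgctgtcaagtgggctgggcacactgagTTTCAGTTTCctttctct
IFI44L was at 0.128, 0.115 and 0.146 CPM in 24-hour cells and 54.4, 51.99 and 53.8 CPM in DTPs (8.66 ± 0.11). RSAD2, the antiviral enzyme viperin, was at 0.0383, 0.0461 and 0.0397 CPM in 24-hour cells and 6.10, 6.02 and 6.10 CPM in DTPs (7.25 ± 0.19). IFI44 was at 1.07, 1.20 and 1.30 CPM in 24-hour cells and 108, 107 and 105 CPM in DTPs (6.49 ± 0.08). The IFI44L window holds its 2 matches on a repeated stretch of the same letters. No window with a match was found for OAS2 or XAF1.

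Of the 22 upstream ligands, sensors and receptors tested, 7 were higher and 8 lower (median 0.01), against 13 higher and 2 lower on the spike-in scale (median 0.43). SAMHD1, a nucleotide hydrolase that limits reverse transcription, was at 13.3, 13.04 and 13.7 CPM in 24-hour cells and 111, 111 and 109 CPM in DTPs (3.05 ± 0.04). The kinase EIF2AK2, activated by double-stranded RNA, went from 38.8 to 125 CPM, 1.69 ± 0.04, the DNA sensor CGAS from 8.77 to 22.5 CPM, 1.36 ± 0.05, and its adaptor STING1 from 58.5 to 111 CPM, 0.93 ± 0.04. The RNA sensors IFIH1 (12.4 to 61.002 CPM, 2.29 ± 0.05) and RIGI (24.7 to 168 CPM, 2.77 ± 0.04), which belong to the interferon response list, rose too. Among the receptors, IFNAR1 was at a mean of 75.99 CPM in 24-hour cells and 63.2 CPM in DTPs (-0.27 ± 0.04, and 0.15 on the spike-in scale), and IL10RB, part of the interferon lambda receptor, went from 64.4 to 30.5 CPM, -1.08 ± 0.04. The signalling inhibitor SOCS3 fell (19.6 to 7.41 CPM, -1.41 ± 0.06). Leukocyte markers, which would show admixed immune cells, were at a summed 53.2 to 53.4 CPM in 24-hour cells and 40.6 to 41.5 CPM in DTPs over 8 genes, of which CD68 and ITGAM made up nearly all, and PTPRC and CD2 were at or near 0.

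Antigen presentation genes were higher in 9 and lower in 3 of 17 tested. The number lower depended on the processing, with 5 in DESeq2, 7 with the 6 libraries alone and 1 on the spike-in scale. B2M, the light chain of HLA class I, went from 741 to 1216 CPM, 0.72 ± 0.04, and the peptide transporter TAP2 from 61.4 to 148 CPM, 1.27 ± 0.03. The inhibitory ligands of T cells CD274 (PD-L1) and PDCD1LG2 (PD-L2) rose. CD274 was at 5.26, 5.14 and 5.34 CPM in 24-hour cells and 31.7, 31.9 and 32.3 CPM in DTPs (2.61 ± 0.05), and PDCD1LG2 went from 3.08 to 24.7 CPM, 3.00 ± 0.07. Of the 15 checkpoint genes tested 8 were higher and 3 lower, among the latter VTCN1 (52.5 to 10.5 CPM, -2.32 ± 0.06).

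Inflammatory genes split into 12 higher and 9 lower of 23 tested. The cytokine CSF2 was at 0.0894, 0.0576 and 0 CPM in 24-hour cells and 7.51, 6.73 and 6.96 CPM in DTPs (7.11 ± 0.23), and IL1A was at 0.409, 0.322 and 0.397 CPM in 24-hour cells and 8.45, 8.05 and 8.01 CPM in DTPs (4.44 ± 0.08). Both were near 0 at 24 hours and below or near their parental means of 10.4 and 44.01 CPM in DTPs. IL32 (36.1 to 237 CPM, 2.72 ± 0.04) and LIF (30.3 to 75.98 CPM, 1.33 ± 0.04) rose too. The neutrophil chemokine CXCL1 (11.3 to 1.58 CPM, -2.83 ± 0.10) and the inhibitor NFKBIA (97.6 to 51.5 CPM, -0.92 ± 0.03) fell.

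The largest increases at high levels included genes of the mesenchymal list. Of 18 mesenchymal genes tested, 12 were higher and 4 lower (2 lower on the spike-in scale), with a median of 1.18. FN1, the matrix glycoprotein fibronectin, was at 1639, 1659 and 1649 CPM in 24-hour cells and 32233, 33144 and 31539 CPM in DTPs (4.29 ± 0.03, adjusted p = 1.1e-20). The parental mean was 504 CPM, so FN1 was lowest in parental cells and highest in DTPs. THBS1, thrombospondin, was at 171, 172 and 169.8 CPM in 24-hour cells and 1981, 1992 and 1959 CPM in DTPs (3.53 ± 0.03). It was lower at 24 hours than in parental cells (329.9 CPM) and higher than that in DTPs. The actin-binding TAGLN went from 3.84 to 72.4 CPM, 4.24 ± 0.05, whereas the matrix crosslinker LOX (25.1 to 12.3 CPM, -1.03 ± 0.05) and TGFBI (760.1 to 421 CPM, -0.85 ± 0.03) fell. Markers of fibroblasts were at a summed 18.4 to 19.7 CPM in 24-hour cells and 23.7 to 27.8 CPM in DTPs over 9 genes, nearly all of it COL1A1, while COL3A1, PDGFRA and THY1 were at or near 0 in all 6 libraries.

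Collagen genes divided into 11 higher and 7 lower of 21 tested (4 lower on the spike-in scale). COL5A1 (21.8 to 143 CPM, 2.72 ± 0.06) and the basement membrane chain COL4A1 (9.84 to 22.2 CPM, 1.17 ± 0.06) were among those higher. COL6A3 (3.34 to 0.544 CPM, -2.62 ± 0.11) and COL12A1 (500.4 to 305 CPM, -0.72 ± 0.04) were among those lower. The YAP and TEAD list, a pathway that responds to cell spreading and stiffness, holds the factors and their regulators as well as targets. Its genes were higher in 10 and lower in 6 of 17 (13 and 0 on the spike-in scale). ANKRD1 was at 10.2, 10.2 and 10.4 CPM in 24-hour cells and 314, 299 and 305 CPM in DTPs (4.90 ± 0.05), and CCN1 was at 195, 195 and 190.5 CPM in 24-hour cells and 774, 775 and 776 CPM in DTPs (2.00 ± 0.03). In the TGF-beta and BMP list 11 of 19 were higher and 6 lower (3 lower on the spike-in scale). The activin subunit INHBA was at 25.8, 26.6 and 25.6 CPM in 24-hour cells and 249, 253 and 245 CPM in DTPs (3.26 ± 0.03), the receptor TGFBR1 went from 63.8 to 298 CPM, 2.22 ± 0.04, and the ligand TGFB2 from 114 to 387 CPM, 1.77 ± 0.03. TGFB3, another ligand, moved the other way (19.2 to 3.43 CPM, -2.49 ± 0.07).

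Of 20 epithelial genes tested 16 were lower and 3 higher in DTPs. ELF3, an epithelial transcription factor, was at 679, 669 and 656 CPM in 24-hour cells and 104, 99.8 and 105 CPM in DTPs (-2.70 ± 0.03). MUC1, a membrane mucin, was at 246, 247 and 233 CPM in 24-hour cells and 23.6, 22.6 and 21.98 CPM in DTPs (-3.41 ± 0.05). The parental means were 23.02 and 1.29 CPM, below both groups. CDH1, which encodes E-cadherin, was at a mean of 495 CPM in 24-hour cells and 488 CPM in DTPs (-0.02 ± 0.03), and the tight junction gene CLDN1 rose (178 to 484 CPM, 1.44 ± 0.04). Mucin and secretory genes had a median of -3.53, with 14 of 17 tested lower and 2 higher. MUC20 was at 366, 376 and 364 CPM in 24-hour cells and 39.4, 41.9 and 40.5 CPM in DTPs (-3.18 ± 0.04). MUC5AC, a secreted mucin, was at 0.307, 0.230 and 0.185 CPM at 24 hours and had no read in any DTP library, at least 19.9-fold lower by a floor of 3 reads over the group. CEACAM6 was at 1916, 1867 and 1823 CPM in 24-hour cells and 152, 149.7 and 143 CPM in DTPs (-3.66 ± 0.03), with the paralog reservation given above.

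Factors of lung and stem cell identity were lower in 13 and higher in 2 of 18 tested (4 higher on the spike-in scale). Their differences ran from -8.70 to 1.98, with a median of -0.59 on the spike-in scale. Besides SOX2, the factors FOXA1 (77.3 to 19.6 CPM, -1.98 ± 0.05), KLF5 (285 to 94.3 CPM, -1.59 ± 0.03) and GATA2 (44.3 to 11.6 CPM, -1.94 ± 0.06) fell. Their parental means were 29.5, 98.8 and 5.04 CPM, so that FOXA1 in DTPs was below, KLF5 near and GATA2 above its parental mean. TP63, the factor of basal cells, rose (0.916 to 3.61 CPM, 1.98 ± 0.13). In the Notch pathway 5 of 14 were higher and 6 lower (7 and 5 on the spike-in scale), with NOTCH3 going from 150.3 to 45.7 CPM, -1.72 ± 0.10 and the target HES1 from 72.5 to 35.5 CPM, -1.03 ± 0.04. Of the endothelial markers PECAM1, an adhesion molecule of vessels and platelets, was at 63.9 to 68.4 CPM in 24-hour cells and 2.65 to 2.89 CPM in DTPs, CDH5 at 40.7 to 42.2 and 30.1 to 30.8 CPM, and VWF at 2.01 to 2.78 and 0.763 to 0.789 CPM. In the other direction, ESAM was at 10.3 to 11.8 and 14.0 to 14.2 CPM, and KDR at 0.172 to 0.396 and 0.476 to 0.721 CPM. Of 5 endothelial markers tested, 2 were called higher and 3 lower in DTPs. The 7 endothelial markers summed to 119 to 124 CPM and 48.4 to 49.2 CPM, and TEK and CLDN5 were near 0 in all 6 libraries.

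Genes of sterol synthesis were lower in DTPs, 22 of 22 tested, with a median of -0.58 on the spike-in scale. These genes are driven by the sterol-sensing factor SREBF2. INSIG1, the sterol sensor's retention protein, was at 259, 257 and 255 CPM in 24-hour cells and 58.6, 59.2 and 58.9 CPM in DTPs (-2.13 ± 0.03). It remained above the parental mean of 22.03 CPM in DTPs. The cyclase LSS (167 to 39.1 CPM, -2.09 ± 0.04) fell too. In fatty acid synthesis 3 of 15 were higher and 11 lower (5 and 6 on the spike-in scale), with a median of -0.27 that was 0.15 on the spike-in scale. SCD, the desaturase that makes monounsaturated fatty acids, was at 1890.1, 1877 and 1857 CPM in 24-hour cells and 182, 179.8 and 180.5 CPM in DTPs (-3.38 ± 0.03). SREBF1, the factor that drives this list, went from 192 to 46.99 CPM, -2.03 ± 0.09.

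In oxidative phosphorylation, 8 of 27 nuclear genes were higher and 12 lower, none by 2-fold (20 and 0 on the spike-in scale), with a median of -0.05 that was 0.37 on the spike-in scale. With all 18 libraries fitted, 3 were higher and 8 lower. All 13 protein genes of the mitochondrial genome were lower (median -0.59, or -0.17 on the spike-in scale, where 4 were called lower), with COX1 going from 12776 to 7901 CPM, -0.69 ± 0.03. Glycolysis and hypoxia genes were higher in 10 and lower in 11 of 24 (16 and 5 on the spike-in scale). The prolyl hydroxylase EGLN3 was at 32.7, 31.9 and 30.8 CPM in 24-hour cells and 193, 192 and 194 CPM in DTPs (2.60 ± 0.03). The hexokinase HK2 (109.9 to 43.1 CPM, -1.35 ± 0.03) and NDRG1 (125 to 34.5 CPM, -1.85 ± 0.03) fell. CA9, a carbonic anhydrase induced by hypoxia, was at 1.34, 1.64 and 1.56 CPM at 24 hours and had no read in any DTP library, at least 125-fold lower by the same floor.

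Stress and redox genes were mixed. In the ATF4 and ER stress list 8 of 20 were higher and 11 lower (9 and 1 on the spike-in scale), with ATF3 (9.47 to 31.7 CPM, 1.74 ± 0.05) and the serine synthesis gene PSAT1 (43.2 to 105 CPM, 1.29 ± 0.04) rising and DDIT4, an inhibitor of mTORC1 signalling, falling (195 to 40.1 CPM, -2.28 ± 0.04). In the glutathione and NRF2 list 8 of 22 were higher and 10 lower (13 and 6 on the spike-in scale). The ferroptosis suppressor AIFM2 rose (36.98 to 76.6 CPM, 1.05 ± 0.04). FTH1, the ferritin heavy chain, was at 9239, 8851 and 8676 CPM in 24-hour cells and 3510.5, 3494 and 3490.4 CPM in DTPs (-1.35 ± 0.02), and the peroxidase GPX2 fell (235 to 59.4 CPM, -1.98 ± 0.03). Lysosome and autophagy genes were higher in 8 and lower in 9 of 23 (15 and 4 on the spike-in scale), with the protease CTSD going from 635 to 224 CPM, -1.50 ± 0.09.

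Aldehyde dehydrogenases, whose activity is used to sort tolerant cells, were higher in 6 and lower in 12 of 19 tested (6 and 8 on the spike-in scale), with a median of -0.57. ALDH1A3 was at 949, 935 and 927 CPM in 24-hour cells and 1723, 1698 and 1725 CPM in DTPs (0.87 ± 0.02). DTPs stood above 24-hour cells in every library and below the parental mean of 1922 CPM. ALDH1A1 was at 1.98, 1.98 and 2.03 CPM in 24-hour cells and 0.0250, 0.0129 and 0.0139 CPM in DTPs (-6.82 ± 0.49), a low level throughout. ALDH3A1 was at 561, 579 and 567 CPM in 24-hour cells and 57.5, 61.1 and 58.6 CPM in DTPs (-3.27 ± 0.06), and here DTPs were also below the parental mean of 176 CPM. ALDH2 (64.02 to 31.3 CPM, -1.03 ± 0.03) fell and ALDH1B1 (62.6 to 97.2 CPM, 0.64 ± 0.03) rose.

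Pro-death genes differed in both directions between 24-hour cells and DTPs. In the BCL2 family 5 of 17 were higher and 7 lower (9 and 5 on the spike-in scale). BMF, a BH3-only activator of apoptosis, was at 161, 160.0 and 161 CPM in 24-hour cells and 22.6, 22.05 and 23.02 CPM in DTPs (-2.83 ± 0.04). BBC3 (10.997 to 4.78 CPM, -1.20 ± 0.12) and PMAIP1 (63.2 to 35.3 CPM, -0.84 ± 0.04), of the same class, fell too. BCL2L11, which encodes BIM, was at 86.9, 84.5 and 87.9 CPM in 24-hour cells and 69.4, 71.8 and 71.5 CPM in DTPs, a difference of -0.29 ± 0.03 that was 0.14 on the spike-in scale. The pore-forming BAK1 (22.5 to 56.5 CPM, 1.33 ± 0.04) and the protector BCL2L1 (77.5 to 123 CPM, 0.67 ± 0.03) rose. Of 11 death receptor genes 3 were higher and 6 lower (7 and 4 on the spike-in scale). The ligand TNFSF10 (TRAIL) was at 86.4, 81.1 and 83.5 CPM in 24-hour cells and 3.94, 4.68 and 4.25 CPM in DTPs (-4.29 ± 0.09), with a parental mean of 0.0487 CPM, while its receptors TNFRSF10A (3.22 to 8.43 CPM, 1.39 ± 0.07) and TNFRSF10B (39.8 to 61.8 CPM, 0.63 ± 0.03) rose. Targets of p53 divided into 9 higher and 10 lower of 23 (13 and 5 on the spike-in scale), with AEN (5.35 to 32.97 CPM, 2.62 ± 0.04) alongside CDKN1A and with TP53INP1 (43.98 to 6.54 CPM, -2.75 ± 0.07) in the other direction.

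In the heterochromatin list 13 of 20 were higher and 5 lower (18 and 0 on the spike-in scale). CHAF1A was at 8.84, 8.84 and 9.15 CPM in 24-hour cells and 27.5, 31.3 and 29.97 CPM in DTPs (1.73 ± 0.06), CHAF1B, the other large subunit of this replication-coupled histone chaperone, went from 3.87 to 15.997 CPM, 2.05 ± 0.05, and the remodeller HELLS from 5.93 to 20.4 CPM, 1.78 ± 0.04. SETDB1, the methyltransferase that places H3K9me3 over retroelements, was at 42.9, 43.99 and 41.8 CPM in 24-hour cells and 32.7, 32.5 and 31.5 CPM in DTPs. Its difference was -0.41 ± 0.04 on the main scale and 0.01 on the spike-in scale, and the parental mean was 32.7 CPM. The DNA methyltransferase DNMT1 (108 to 152 CPM, 0.50 ± 0.03) and the dioxygenase TET3 (46.01 to 77.9 CPM, 0.76 ± 0.04) were among 7 of 13 DNA methylation genes that rose, with 2 that fell (1 lower on the spike-in scale).

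Histone demethylases were higher in 3 and lower in 11 of 17 (10 and 3 on the spike-in scale), with a median of -0.18 that was 0.24 on the spike-in scale. KDM5A, the H3K4 demethylase linked to tolerant PC9 cells in earlier work, was at 105, 109 and 110.4 CPM in 24-hour cells and 95.9, 96.5 and 93.4 CPM in DTPs. Its difference was -0.18 ± 0.04 and 0.24 on the spike-in scale, and the call was lost when all 18 libraries were fitted. KDM1A, another H3K4 demethylase, was at 814, 792 and 788 CPM in 24-hour cells and 310.1, 302 and 308 CPM in DTPs (-1.38 ± 0.03), which also put DTPs below the parental mean of 549.5 CPM. Histone deacetylases were higher in 3 and lower in 7 of 11, against 4 and 2 on the spike-in scale (median -0.28, or 0.14 on the spike-in scale), the largest being HDAC5 (44.4 to 17.02 CPM, -1.38 ± 0.06).

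Among genes that restrict LINE-1, 7 of 16 were higher and 7 lower. All 7 that fell were APOBEC3 cytidine deaminases, including APOBEC3B at 334, 322 and 314 CPM in 24-hour cells and 111, 110.1 and 111 CPM in DTPs (-1.55 ± 0.03), although these paralogs resemble each other and reads could be split between them. Those that rose were BST2 and SAMHD1, described above, ADAR (307 to 509 CPM, 0.73 ± 0.03), the RNA-binding ZC3HAV1 (68.3 to 113 CPM, 0.72 ± 0.03), TRIM5 (29.7 to 39.4 CPM, 0.41 ± 0.05, not called with all 18 libraries), the helicase MOV10 (126 to 149 CPM, 0.24 ± 0.03) and RNASEH2A (36.6 to 48.2 CPM, 0.39 ± 0.03).

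Repeat families of transposons were tested on the library sizes of the genes. Of 1089 repeat subfamilies, 123 (11.3%) were higher and 380 (34.9%) lower in DTPs, together 46.2%, with a median of -0.15, but on the spike-in scale 356 were higher and 88 lower with a median of 0.26. Of 57 families, 8 (14%) were higher and 25 (43.9%) lower, together 57.9%, against 16 higher and 0 lower on the spike-in scale. Among families of at least 100 CPM the lowest differences were those of ERV1 and ERVK, endogenous retroviruses with long terminal repeats. ERV1 was at 2733, 2648 and 2571 CPM in 24-hour cells and 1704, 1724 and 1665 CPM in DTPs (-0.64 ± 0.03, and -0.22 on the spike-in scale). ERVK was at 292, 279 and 279.5 CPM in 24-hour cells and 208, 203 and 199 CPM in DTPs (-0.48 ± 0.03, and -0.06 on the spike-in scale). For both, every DTP library was below every 24-hour library, but neither was called on the spike-in scale, and the groups did not overlap for 59.6% of all families. The parental means were 1827 and 184 CPM. Alu was at 2770.3, 2664 and 2612 CPM in 24-hour cells and 2413, 2292 and 2331 CPM in DTPs, a difference of -0.19 ± 0.04 that was 0.23 on the spike-in scale. The L1 family as a whole was at 4158, 4074 and 4136 CPM in 24-hour cells and 4198, 4129 and 4136 CPM in DTPs, a difference of 0.01 ± 0.04 that did not pass the test and was 0.43 on the spike-in scale. The satellite family of centromeres was at 14.7, 15.9 and 14.9 CPM in 24-hour cells and 21.7, 21.5 and 21.8 CPM in DTPs (0.51 ± 0.04), higher on both scales but not called with all 18 libraries. With total repeat reads as library sizes, a total in which rRNA repeats took 32.3% to 60.7% of the reads of the 6 libraries, no family was called.

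**Figure D5:**
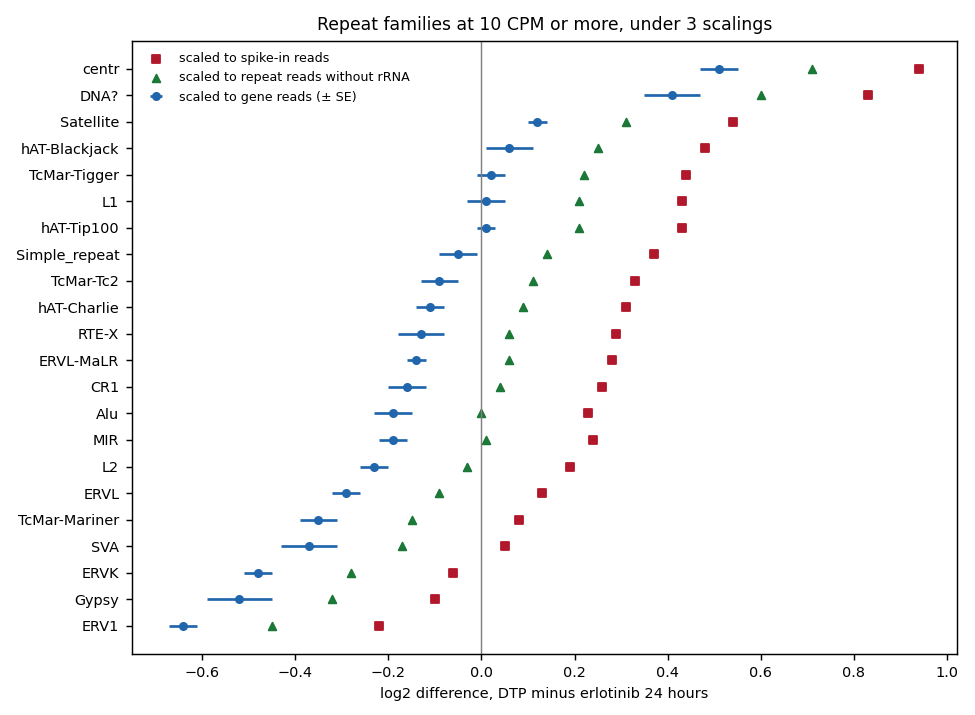
Log2 difference between DTPs and 24-hour cells (horizontal axis) of the 22 repeat families with at least 10 CPM in either group, rRNA repeats left out, scaled to gene reads (circles with SE), to repeat reads without rRNA (triangles) and to spike-in reads (squares). ERV1 lies below zero under all 3 scalings and centromeric satellites above zero under all 3. Many families change side, among them Alu, L2, MIR, CR1 and ERVL.

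Most young LINE-1 subfamilies were higher in DTPs than at 24 hours, unlike the family total. Of the 8 subfamilies L1HS and L1PA2 to L1PA8, 7 were higher and 1 lower, beside 11.3% and 34.9% of all subfamilies. None of the 8 changed by 2-fold, beside 1.84% of all subfamilies that were higher and 6.15% that were lower by at least 2-fold. The median of the 8 was 0.40 on the main scale and 0.82 on the spike-in scale. With all 18 libraries fitted, 4 were called higher. L1HS, the subfamily that can still move in humans, was at 51.6, 51.7 and 55.9 CPM in 24-hour cells and 75.8, 76.2 and 71.9 CPM in DTPs (0.49 ± 0.04). L1PA2 was at 98.3, 99.6 and 101 CPM in 24-hour cells and 140.0, 140.0 and 136 CPM in DTPs (0.47 ± 0.04). For both the groups did not overlap, as for 54.9% of all subfamilies, and the parental means were 54.4 and 75.2 CPM. Neither was called when total repeat reads were taken as library sizes, where the differences were 0.54 and 0.52. L1PA3 differed by 0.29 ± 0.04 and L1PA4 by 0.33 ± 0.04, both not called with all 18 libraries fitted, and L1PA7 was the one that fell (-0.34 ± 0.04, with 0.08 on the spike-in scale). The largest differences of the 8 were those of L1PA6 (0.61 ± 0.05) and L1PA5 (0.51 ± 0.04). L1PA5 went from 90.2 to 129 CPM, near its parental mean of 134 CPM. Rises of this size were also found among 18 older primate L1 subfamilies, with differences from -0.84 to 0.70. Of those, 6 were higher and 5 lower (12 and 1 on the spike-in scale). These subfamilies are nearly identical in sequence, so reads could be split between them, and a read of an L1 copy inside a gene's transcript is not told apart from L1's own transcript.

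Among other subfamilies of at least 1 CPM, the largest increases were MER57F (1.48 ± 0.15), MLT1-int (1.47 ± 0.14), HSAT4 (1.40 ± 0.09), Charlie17 (1.37 ± 0.07) and LTR7 (1.23 ± 0.06). The largest decreases were MER65B (-4.11 ± 0.34), LTR40A1 (-2.47 ± 0.16), LTR36 (-2.37 ± 0.10), MER65-int (-2.32 ± 0.17) and LTR7C (-2.05 ± 0.08). LTR7, the long terminal repeat of the HERVH retrovirus, was at 13.1, 11.6 and 11.8 CPM in 24-hour cells and 29.1, 27.9 and 28.3 CPM in DTPs, while its variant LTR7C was at 20.1, 18.9 and 16.9 CPM in 24-hour cells and 4.90, 4.27 and 4.33 CPM in DTPs. HERVH-int, the internal part of that retrovirus, was at 1226, 1203 and 1138 CPM in 24-hour cells and 692, 738 and 681 CPM in DTPs (-0.76 ± 0.10, and -0.33, not called, on the spike-in scale). SVA elements were lower for 5 of 6 subfamilies, against 1 higher and 0 lower on the spike-in scale, with a median of -0.36 that was 0.06 on the spike-in scale.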

How the data were processed

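The authors quantified poly-A RNA-seq reads with Salmon, per the submitters' processing notes, and deposited tables of estimated counts per gene, repeat subfamily, family and class, and ERCC spike-in. Not given in the sources used here were the version of Salmon, its index and the genome build. Columns were assigned by library title, and 3 columns per table that match no sample were not used. Entrez IDs were given symbols from RefSeq GRCh38.p14 (27814 of 30727 IDs, and 0.247% of gene reads lay in IDs without one). Estimated counts were rounded and fitted with edgeR 4.0.16 (TMM, filterByExpr, glmQLFit, glmQLFTest, 2-sided) over 12 libraries in 4 groups, leaving 8 residual degrees of freedom, with gene library sizes also used for repeats. Families needed 10 reads in all. DESeq2 1.42.0 was an alternative. On simulated counts for this comparison over 17076 genes, all changes of log2 1 and 2 were recovered (100%), with 14 false calls. For each size 100 genes were changed, all genes were drawn with the same spread, and the scaling was that of the real libraries. The simulation therefore did not test the scaling, unequal spread or changes in genes at very low levels. Members and lists were chosen with earlier results of these data known. Genes were named by size (12 per direction, at least 10 CPM, no overlap between groups, uncharacterised names skipped), by list (up to 4 with the smallest p in the direction of the median and 2 in the other) or as defining parts of a pathway. Some genes that these rules name are not reported here.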

Additional observations from a re-analysis of the deposited data

How the results depend on the processing

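Alternatives were another tool, other scalings, other filters, other libraries in the fit, and each of the 6 libraries left out in turn. Of 3106 values of the 205 named genes, families and subfamilies under these alternatives, 3071 kept their direction and their side of the threshold. The scaling mattered most. On the spike-in scale 2587 genes were lower in DTPs, subfamilies split into 356 higher and 88 lower, families into 16 and 0, and 58 of 124 list counts moved by over 1.5 times. There the sign turned for BCL2L11 (0.14), IFNAR1 (0.15), IGF1R (0.26), KDM5A (0.24), MKI67 (0.22), SETDB1 (0.01), L1PA7 (0.08) and Alu (0.23). With repeat reads as library sizes, 6 subfamilies were higher and 29 lower, and 0 families were called in either direction. With repeat reads without rRNA, an alternative chosen after seeing the data, the counts were 254 and 195 for subfamilies and 17 and 11 for families, and Alu stood at 0.00. With all 18 libraries fitted, 47 subfamilies were higher and 187 lower, 4 families higher and 14 lower, and 18 of 124 list counts moved. Without replicate a of both TSA groups these were 114 and 396 subfamilies, 7 and 24 families, and 1 of 124 list counts. With the 6 libraries alone, 16437 genes were tested, of which 6690 were higher and 6584 lower. The share of calls that were higher was then 50.4%, against 55.6% in the main fit. Subfamilies split there into 110 higher and 453 lower, and families into 5 and 27. The cause of the other changes was not tested.

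Leaving out 1 library gave 6905 to 7016 genes higher and 5449 to 5504 lower, 104 to 117 subfamilies higher and 314 to 352 lower, and 6 to 8 families higher and 21 to 23 lower. The spike-in difference was -0.45 to -0.39 there. Replicate letters did not meet the criterion for pairing: deviations of same-letter libraries of the 2 groups correlated at 0.12, 0.14 and 0.09 across genes, although each library correlated best with its own letter. The replicate block gave 7140 genes higher and 5689 lower. At these depths counting error is small for genes above 1 CPM, and values under 0.1 CPM rest on few reads.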

Other observations

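Chaperone and tubulin genes, picked after their values were seen, were lower at 24 hours than in either other group. HSP90AA1, a stress-inducible form of the chaperone HSP90, was at 3081, 3034 and 3115 CPM in 24-hour cells and 6215, 6042 and 6167 CPM in DTPs (1.00 ± 0.03), with a parental mean of 13135 CPM. HSPA8, the constitutive HSP70 chaperone, was at 891, 859 and 864 CPM and 2578, 2474 and 2498 CPM (1.53 ± 0.03), with a parental mean of 4819 CPM. The tubulins TUBB (694 to 2024 CPM as group means, 1.54 ± 0.02) and TUBA1B (441 to 1388 CPM, 1.65 ± 0.03) and the hyaluronan receptor CD44 (470.1 to 1211 CPM, 1.37 ± 0.03) showed the same order of groups. Tubulin and HSP90 genes have close paralogs, and reads could be split between them. CEMIP, a protein that binds and helps break down hyaluronan, was at 64.5, 67.9 and 64.1 CPM in 24-hour cells and 1159, 1205 and 1144 CPM in DTPs (4.16 ± 0.04).

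Long noncoding RNAs leaned the other way from coding genes on the main scale. Of 1571 tested, 314 were higher and 606 lower in DTPs (median -0.33, or 0.09 on the spike-in scale), against 6546 higher and 4764 lower of 14282 protein-coding genes (median 0.10, or 0.52 on the spike-in scale). Whether these counts relate to the lower mitochondrial share or the lower spike-in share of DTPs was not tested.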
